A study of Danio rerio with 4 samples.

Results

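Endothelial cells line blood vessels, and in the brain they form the blood-brain barrier, in which tight junctions seal the gaps between cells and transport through the cells is held low. kdrl encodes a receptor for vascular endothelial growth factor and cdh5 encodes VE-cadherin, the adhesion molecule of endothelial junctions, and both are used to identify endothelial cells. CLDN5 encodes claudin-5, the main claudin of brain endothelial tight junctions in mammals, and MFSD2A encodes a lipid transporter that in mice restrains vesicular transport across the barrier. In mice, pericytes are needed for the barrier, and they lie against the endothelial cells inside a shared basement membrane.

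The genes described here are 5 of the 32105 Ensembl gene IDs in the count table, chosen by ID. The barrier genes are CLDN5 (ENSDARG00000043716) and MFSD2A in both of its IDs, ENSDARG00000035909 (here MFSD2A-x) and ENSDARG00000030630 (here MFSD2A-y). The identity genes are kdrl (ENSDARG00000105215) and cdh5 (ENSDARG00000075549). Zebrafish carry 2 copies each of MFSD2A and CLDN5, and the symbols do not say which copy an ID is. The question was whether the barrier genes follow the identity genes from library to library.

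All 4 libraries belong to the only group of the study, cells positive for EGFP driven by pdgfrb sequence, sorted from Liberase-dissociated brains of adult wildtype zebrafish that carry the pdgfr beta egfp transgene. Each library was a pool of 6 brains, and its RNA was amplified before sequencing. Titles and source names call the samples pericytes while a cell type tag reads muLEC, and the libraries are named B1 to B4 after columns that carry no sample number. The sort selected for the promoter of pdgfrb, a gene of mural cells, and did not select for endothelial cells. Total counts ran from 33270774 to 40441253, and 3 counts, the floor for counting error, came to between 0.0751 and 0.0879 CPM (read counts scaled to a common library size, with TMM factors between libraries). The libraries were not alike. In B1, 20 of 22 tested neuron genes were at their highest, against 36% of all tested genes. The summed level of the neuron list was 3093 CPM in B1 and between 279 and 502 CPM in the other libraries. Levels and ratios of the members are therefore given with and without B1.

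No single pattern over the libraries covered the 3 barrier genes and the identity genes, although some features were shared. CLDN5 and kdrl were both highest in B1. Both MFSD2A IDs and cdh5 were highest in B2, and MFSD2A-y and cdh5 were also low in B1. For the MFSD2A IDs the place of B2 was nearly a tie. It was 1.02-fold above the next library for MFSD2A-x and 1.09-fold for MFSD2A-y, against 1.70-fold for cdh5. CLDN5 was high in B1 alone, MFSD2A-y was low in B1 alone, and MFSD2A-x was nearly level. kdrl and cdh5 kept a nearly constant ratio in B2, B3 and B4 and parted in B1. In pooled sorted cells, fewer endothelial cells and less RNA per endothelial cell cannot be told apart.

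**Figure D1:**
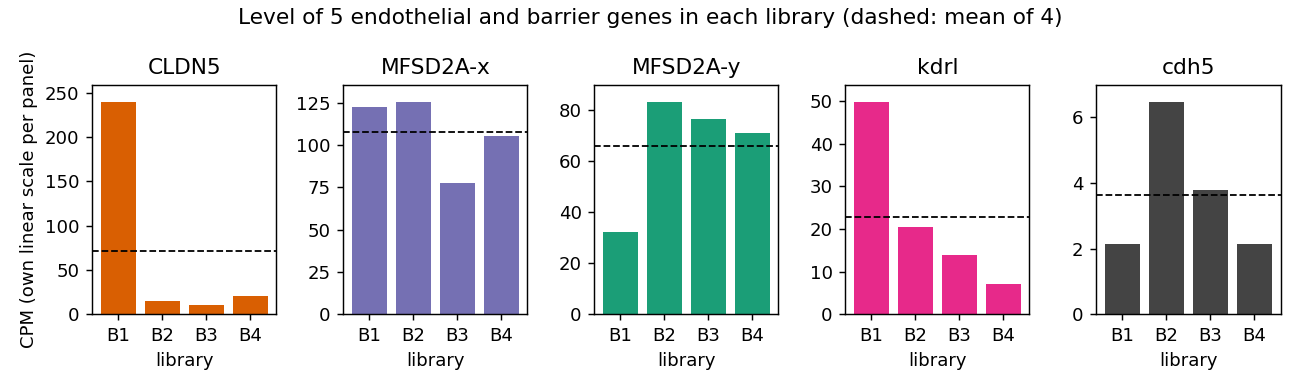
Bars give the level (CPM, linear scale, a separate scale for each panel) of 3 barrier genes and 2 identity genes in libraries B1 to B4, and the dashed line is the mean of the 4 libraries. CLDN5 stands at 240 CPM in B1 and at most 20.3 CPM elsewhere, and MFSD2A-y stands at 32.2 CPM in B1 and at least 70.9 CPM elsewhere.

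CLDN5 had 8177 counts in B1, against 552, 392 and 810 counts in B2 to B4. These counts correspond to 240, 14.9, 10.9 and 20.3 CPM, a mean of 71.4 ± 112 CPM (SD, n = 4 here and below). B1 was 11.8-fold above the next library, and such a rise of at least 10-fold over the highest other library was found in 139 of 17283 tested genes (0.804%). B2, B3 and B4 lay within 1.85-fold of each other, with a mean of 15.4 ± 4.68 CPM. The biological coefficient of variation of edgeR, which is drawn towards a trend with abundance, was 1.00 for CLDN5, where the trend was 0.512. CLDN5 was the 1 member that met the rule for variable genes, a mean of at least 10 CPM and a coefficient of at least 1, which 0.498% of tested genes met. Without B1 its coefficient was 0.294, and that of all tested genes without B1 is not given here. Without B2, B3 and B4 in turn it was 0.955, 0.898 and 0.984, so 0 members were variable whichever library was left out.

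The other CLDN5 ID of the table, ENSDARG00000014059, had 77, 48, 130 and 19 counts in B1 to B4. Its level was 2.26, 1.30, 3.63 and 0.475 CPM, highest in B3 and lowest in B4. The rise in B1 was thus found for 1 of the 2 CLDN5 IDs. Near-identical copies may share reads, so how counts fall between the IDs is uncertain. In zebrafish embryos the cldn5a copy is also known from the neuroepithelium around the brain ventricles, and the shared symbol does not say whether either ID is that copy.

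MFSD2A-x was counted 4188, 4631, 2780 and 4211 times in B1 to B4. Its level was 123, 125, 77.7 and 105 CPM, a mean of 108 ± 22.0 CPM. Without B1 the mean was 103 ± 24.0 CPM. The highest library was 1.62-fold above the lowest, and the SD of its log2 CPM, 0.32, was larger than that of 18.5% of tested genes. MFSD2A-x was thus among the steadier tested genes in these pools.

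MFSD2A-y was counted 1098, 3071, 2742 and 2834 times in B1 to B4. Its level was 32.2, 83.2, 76.6 and 70.9 CPM, a mean of 65.7 ± 22.9 CPM. B1 was below the other 3 libraries, which lay within 1.17-fold of each other. A level in B1 of at most 0.5-fold the lowest other library was found in 15.8% of tested genes, so a fall of this kind in B1 was common. Without B1 the mean was 76.9 ± 6.13 CPM. The ratio of MFSD2A-x to MFSD2A-y was 3.81, 1.51, 1.01 and 1.49 in B1 to B4. The copies of this lipid transporter gene therefore parted in B1 too.

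kdrl was counted 1701, 760, 496 and 286 times in B1 to B4. Its level was 49.8, 20.6, 13.9 and 7.16 CPM, a mean of 22.9 ± 18.8 CPM. No 2 libraries were close, and the highest was 6.96-fold above the lowest. B1 was 2.42-fold above the next library, as 15.1% of tested genes were by at least 2-fold. Without B1 the mean was 13.9 ± 6.71 CPM. PDGFRB, the gene whose sequence drove the sort, stood at 219, 76.0, 121 and 46.0 CPM in B1 to B4, and was likewise highest in B1 and lowest in B4.

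cdh5 was counted 73, 239, 136 and 85 times in B1 to B4. Its level was 2.14, 6.47, 3.80 and 2.13 CPM, a mean of 3.63 ± 2.05 CPM, well over the floor. B2 was highest, and B1 and B4 were the lowest and close to each other. B2 was 3.04-fold above B4, and without B1 the mean was 4.13 ± 2.19 CPM. The lowest count, in B1, carries a counting error of 11.7% of its value.

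**Figure D2:**
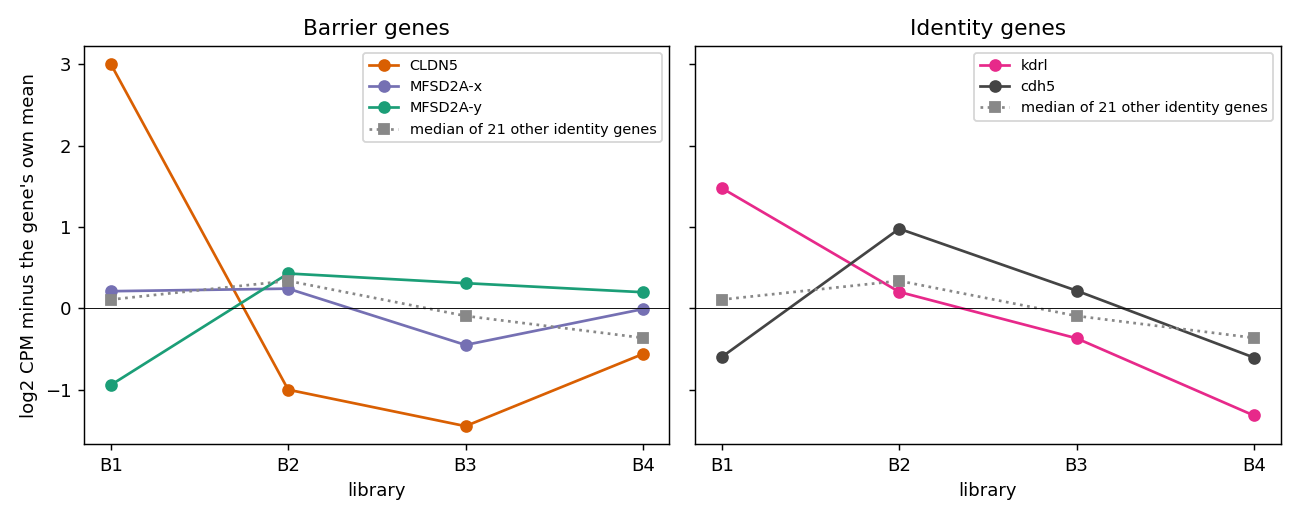
Points give the log2 CPM of each gene minus its own mean over libraries B1 to B4, for barrier genes on the left and identity genes on the right, and squares give the median of the 21 other tested genes of the endothelial identity list. Lines join 1 gene's values and imply no order; CLDN5 reaches 3.00 in B1, where MFSD2A-y is at -0.94 and cdh5 at -0.59.

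Levels of different genes were not compared by length, so a ratio of 2 genes is used only for how it moves between libraries. If a barrier gene followed an identity gene with changes of like size, their ratio would vary less than either gene does. The SD of a log2 ratio cannot be under the gap between the SDs of its 2 genes. With the SDs found, CLDN5 with cdh5 and MFSD2A-x with either identity gene could therefore not meet this rule. Without B1 neither MFSD2A ID could meet it with kdrl or cdh5. For these pairs the rule cannot say whether the barrier gene followed the identity gene. The log2 ratio of CLDN5 to kdrl had an SD of 1.35, against SDs of log2 CPM of 2.03 for CLDN5 and 1.17 for kdrl. The CPM ratio itself was 4.81, 0.726, 0.790 and 2.83 in B1 to B4. It was high in B1 and in B4, the libraries where kdrl was at its highest and its lowest. The ratio of CLDN5 to cdh5 was 112, 2.31, 2.88 and 9.53 in B1 to B4, with an SD of 2.56 on the log2 scale, larger than that of CLDN5 or cdh5 (0.76). Without B1 the SDs of these log2 ratios were 1.095 and 1.087, each larger than that of CLDN5 (0.44), kdrl (0.77) or cdh5 (0.79) alone.

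The ratio of MFSD2A-x to kdrl was 2.46, 6.09, 5.60 and 14.7 in B1 to B4. Its SD was 1.05 on the log2 scale, under that of kdrl and over the 0.32 of MFSD2A-x. The ratio of MFSD2A-x to cdh5 was 57.4, 19.4, 20.4 and 49.5 in B1 to B4, with an SD of 0.81, larger than that of either gene. Without B1 the SD of the ratio to kdrl was 0.768, against 0.766 for kdrl and 0.35 for MFSD2A-x. The SD of the ratio to cdh5 was then 0.749, over that of MFSD2A-x and no longer over that of cdh5 (0.791). Both ratios were high in the libraries where the identity gene was low.

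The ratio of MFSD2A-y to kdrl was 0.645, 4.04, 5.53 and 9.91 in B1 to B4, an SD of 1.70 on the log2 scale. This was larger than the SD of MFSD2A-y (0.63) or of kdrl. Without B1 the SD of this ratio was 0.65, under that of kdrl (0.77) and over that of MFSD2A-y (0.11). The ratio of MFSD2A-y to cdh5 was 15.0, 12.8, 20.2 and 33.3 in B1 to B4. This was so for 1 of the 6 pairs of a barrier and an identity gene: its SD was 0.60, under that of MFSD2A-y and of cdh5. Among the 6, CLDN5 with cdh5 and MFSD2A-x with either identity gene could not have met the rule, so the tally is no measure of following. For MFSD2A-y and cdh5 the ratio was only a little steadier than the genes. Without B1 the SD of the ratio was 0.68, against 0.11 for MFSD2A-y and 0.79 for cdh5. With those SDs the pair could not have met the rule, so leaving out B1 cannot say whether the narrow margin rested on it. In B2, B3 and B4, MFSD2A-y was nearly level while cdh5 ranged 3.04-fold.

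The identity genes themselves were set against each other in the same way. The ratio of kdrl to cdh5 was 3.18 in B2, 3.65 in B3 and 3.36 in B4, and 23.3 in B1. In B2, B3 and B4 the SD of the log2 ratio was 0.10, while kdrl alone had an SD of 0.77 and cdh5 of 0.79. The counting error of this log2 ratio was at most 0.18 in a single library. With all 4 libraries the SD of the ratio was 1.38, larger than that of either gene. Likeness was also measured as the root mean square difference of log2 profiles, each centred on its own mean. Over all 4 libraries 82.3% of tested genes were nearer to cdh5 than kdrl was, and without B1 0.179% were.

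**Figure D3:**
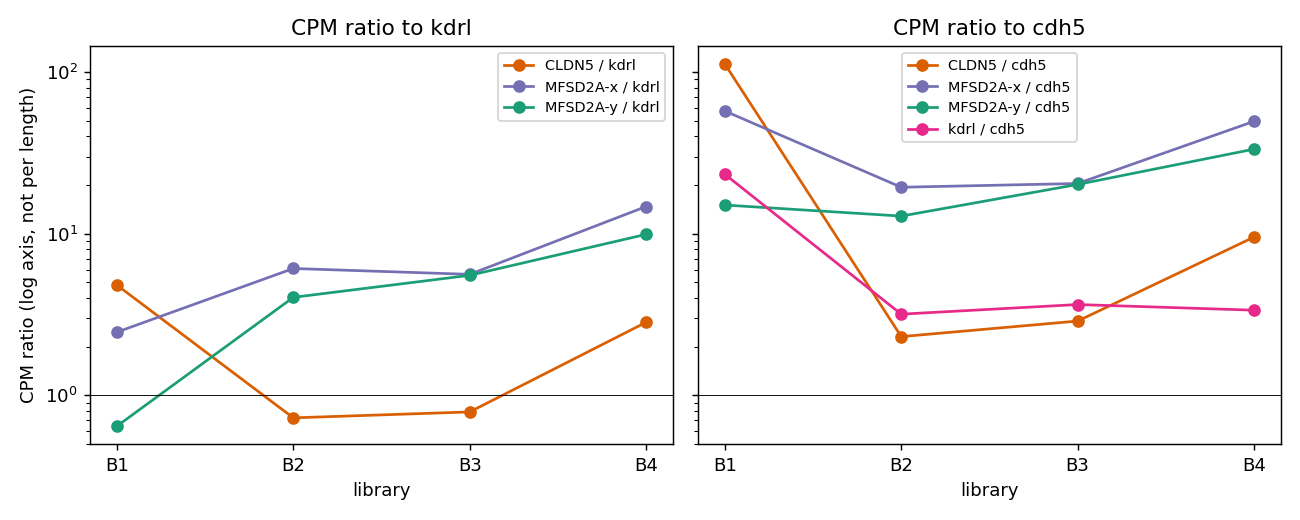
Points give the CPM ratio within each library (log axis) of the barrier genes to kdrl on the left, and of the barrier genes and kdrl to cdh5 on the right. Lines join 1 pair's values; the ratio of kdrl to cdh5 is flat from 3.18 to 3.65 in B2, B3 and B4 and is 23.3 in B1.

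The within-library log2 differences were tested for 10 pairs of the 5 genes with an exact two-sided sign-flip test over 4 libraries, whose smallest possible p rounds to 0.13. The design can therefore pass no pair at 0.05. The difference had 1 sign in all 4 libraries for 6 pairs, which reached that p, and the smallest Benjamini-Hochberg adjusted value over the 10 pairs was 0.208. These were cdh5 against the other 4 members, MFSD2A-x against kdrl, and the pair of MFSD2A copies. Because the sign of such a difference also depends on gene length, the ratios above carry the comparison. A correlation over 4 libraries was not computed.

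The median tested gene stood at 12.6 CPM, and each member's level was tested against it with the quasi-likelihood method of edgeR. All 5 members passed the filter of 1 CPM in at least 2 libraries. Above the median tested gene lay 3 members, where 36.8% of tested genes did so, and below it lay 1, where 33.2% did so. MFSD2A-x lay above it by 3.09 ± 0.22 log2 units (SE, adjusted p = 4.42e-06) and MFSD2A-y by 2.38 ± 0.27 (8.29e-05). CLDN5 lay above it by 2.50 ± 0.77 (adjusted p = 0.00648), and by 0.29 without passing when B1 was left out. Over the alternatives its adjusted p lay between 1.25e-05 and 0.206. kdrl did not pass at 0.86 ± 0.44 (edgeR adjusted p = 0.0919), and cdh5 lay below it by -1.80 ± 0.36 (0.00901). With every detected ID fitted, the call of cdh5 ended, at 0.21. These levels are per gene and not per length, and the labels give no second group to set them against.

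The identity genes were then read beside 32 entries of an endothelial identity list, of which 28 matched 27 IDs and 23 of these were tested. In this list 3 genes lay above the median tested gene and 16 below, and the median gene stood 1.42 log2 units under it (-1.42). Of all tested genes 36.8% lay above the median tested gene and 33.2% below. Above it were S1PR1, a receptor for sphingosine-1-phosphate, at 1632 ± 114 CPM, robo4, a roundabout receptor gene of endothelium, at 66.4 ± 37.2 CPM, and cd34, a surface sialomucin gene of endothelial and blood progenitor cells, at 27.0 ± 4.07 CPM. These 3 stood far over the median tested gene of the list, which averaged 4.71 CPM, and which cells their counts came from was not tested. The transcription factor gene FLI1 at 13.1 ± 4.73 CPM did not pass, nor did SOX7 at 10.2 ± 4.98 CPM and the angiopoietin receptor family gene TIE1 at 7.37 ± 3.40 CPM, although TIE1 passed below the median tested gene without B2 (edgeR adjusted p = 0.0350). SOX17 had 0 counts in all 4 libraries, at a floor of 3 counts. These counts turn on the filter: with every ID of at least 1 count fitted, 11 identity genes lay above the median tested gene and 3 below. In that fit 12310 of all 28308 tested IDs lay above and 11536 below.

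The list did not move as kdrl did. In B1 6 of its 23 tested genes were highest, against 36% of all tested genes, and in B2 10 were highest, against 24.8%. Of the 23, kdrl and vwf, the von Willebrand factor gene, were the 2 genes at least 2-fold above the highest other library in B1. Among all tested genes 15.1% were, so such genes were not more common in this list. vwf stood at 6.48 CPM in B1 and 1.90, 0.754 and 1.00 CPM in B2 to B4. robo4 stood at 117, 56.8, 63.1 and 28.3 CPM in B1 to B4, which like kdrl was highest in B1 and lowest in B4. clec14a, a C-type lectin gene of endothelium, stood at 0.996, 6.45, 2.32 and 3.48 CPM, which like cdh5 was highest in B2 and low in B1. The median of the 21 tested genes other than kdrl and cdh5, centred on each gene's mean, was 0.11, 0.34, -0.09 and -0.36 in B1 to B4. From this median profile MFSD2A-x differed by 0.26 log2 units (root mean square), MFSD2A-y by 0.63 and CLDN5 by 1.73, and cdh5 differed by 0.51 and kdrl by 0.85. MFSD2A-x, the steadiest member, was as near to other lists: its distance from the barrier junction, barrier transporter and Wnt lists was 0.25, 0.25 and 0.26. This comparison was added after the values were seen.

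Junction genes held CLDN5 and 15 further IDs, 14 of the 16 tested, with 6 above the median tested gene and 6 below. Among all tested genes 36.8% lay above it and 33.2% below, so these counts were not far from those shares. The zonula occludens genes TJP1 and tjp1b stood at 80.5 ± 48.7 and 74.6 ± 76.7 CPM, and the junctional adhesion gene JAM3 at 71.9 ± 34.8 CPM, all above it. CGNL1, a paracingulin gene, was also above it, at 37.7 ± 6.53 CPM. The occludin gene oclna lay below it at 1.55 ± 1.20 CPM. B1 was highest for TJP1, at 153 CPM against 52.9, 49.8 and 66.5 CPM in B2 to B4, and for tjp1b, at 189 CPM against 30.2, 50.03 and 29.3 CPM. It was lowest for JAM3, at 36.6 CPM against 49.2, 91.4 and 110 CPM. Of the 14 tested genes 3, CLDN5 among them, were in B1 at least 2-fold above the highest other library, against 15.1% of all tested genes. In B1 2 of them, jam2b and f11r.1, were at most 0.5-fold the lowest other library, against 15.8%. Without B1 tjp1b averaged 36.5 CPM and still passed, and without B2 oclna averaged 0.957 CPM and was not tested. The median tested junction gene other than CLDN5 was lower in B1 than in the mean of the other libraries by -0.19 log2 units, against -0.12 for all tested genes, and CLDN5 was higher by 4.00. Without B2 3 junction genes lay below the median tested gene.

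Transporter genes held both MFSD2A copies among 21 IDs, 17 of them tested, with 10 above the median tested gene and 4 below. Among all tested genes 36.8% lay above it and 33.2% below. The amino acid transporter heavy chain genes slc3a2a and SLC3A2 stood at 371 ± 181 and 305 ± 79.9 CPM, the transferrin receptor gene tfr1b at 159 ± 38.9 CPM, and the insulin receptor gene INSR (ENSDARG00000011948) at 66.5 ± 42.6 CPM. SLC2A1 (ENSDARG00000007412), the glucose transporter gene of the barrier, stood at 43.6 ± 13.4 CPM, SLC16A1 (ENSDARG00000068572), a monocarboxylate transporter gene, at 36.3 ± 6.68 CPM, and the lipoprotein receptor gene LRP8 at 25.2 ± 6.08 CPM. All of these 7 were above it. Without B3 LRP8 did not pass (edgeR adjusted p = 0.0517). SLCO1C1, a thyroxine carrier gene of brain capillaries, and the efflux pump gene ABCB4 lay below it, at 3.14 ± 1.76 and 3.41 ± 0.520 CPM. So did the amino acid transporter gene SLC7A5 at 7.14 ± 0.204 CPM and the other SLC2A1 ID, ENSDARG00000001437, at 2.60 ± 2.32 CPM. Without B2, B3 and B4 in turn SLC7A5 did not pass (edgeR adjusted p = 0.0554, 0.0601 and 0.0653). SLC2A1 (ENSDARG00000007412) stood at 29.4, 42.0, 41.5 and 61.6 CPM in B1 to B4, lowest in B1 as MFSD2A-y was. Most genes of this list serve other cell types as well.

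**Figure D4:**
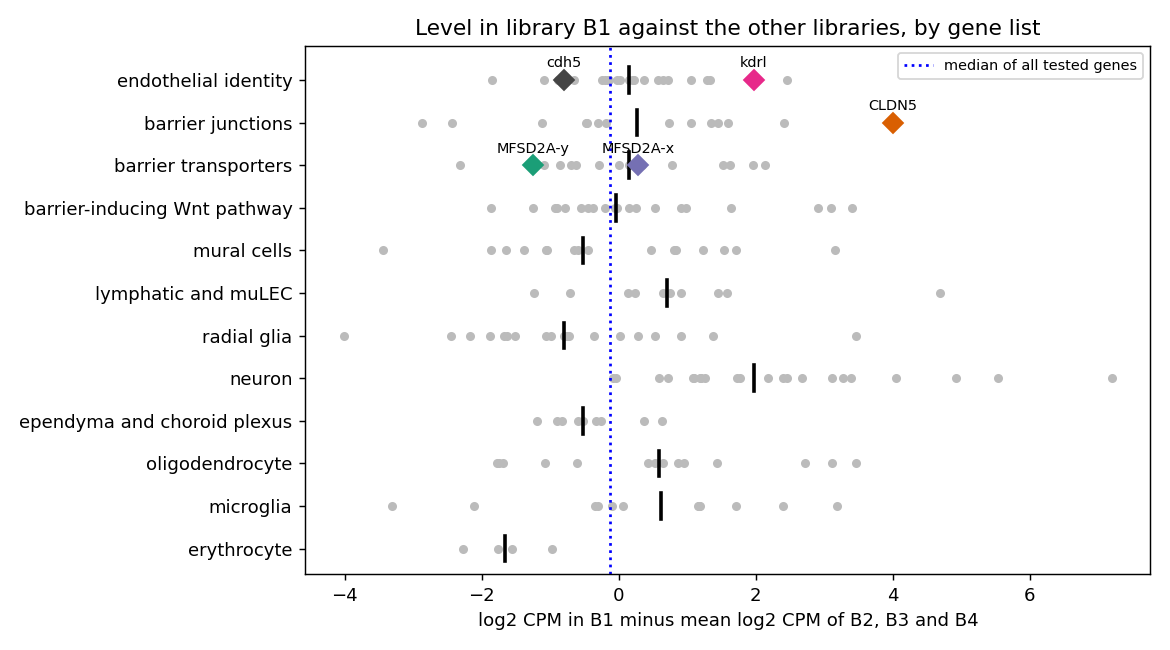
Each grey point is 1 tested gene of a list and each coloured diamond 1 of the 5 members, placed by its log2 CPM in B1 minus its mean log2 CPM in B2, B3 and B4; black bars are list medians and the dotted line is the median of all 17283 tested genes (-0.12). CLDN5 lies at 4.00 and kdrl at 1.97, while cdh5 at -0.79 and MFSD2A-y at -1.25 lie on the other side.

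Markers of other cell types moved with B1, and are given here beside the members that moved with it. The neuron list, the one with the highest median in B1, was 1.98 log2 units above the mean of the other libraries at its median gene. Where 15.1% of all tested genes were at least 2-fold above the highest other library in B1, 12 of its 22 tested genes were. Among them NEUROD1, a neuronal transcription factor gene, stood at 494 CPM in B1 and 30.2, 24.1 and 36.9 CPM in B2 to B4, and the tubulin gene tubb5 at 758 CPM and 67.1, 50.8 and 109 CPM. No ID of this list was at 0 in all libraries. CLDN5 and kdrl rose in the library where these genes did, and the part of those cells in the result was not tested.

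The lymphatic and muLEC list was highest in B1 for 6 of its 10 genes, against 36% of all tested genes. Its summed level was 458 CPM in B1 and between 226 and 305 CPM in the others. The part of those cells in the level of kdrl was not tested. The radial glia list ran the other way at its median gene, at -0.80 log2 units in B1 against the mean of the other libraries. For all tested genes this was -0.12. Its summed level was 29485 CPM in B1 and between 43902 and 48799 CPM in the others. In that sum GLUL (ENSDARG00000099776) had the highest mean, at 6530 CPM in B1 and 22271, 18839 and 19570 CPM in B2 to B4. In B1 SLC1A2 (ENSDARG00000102453) stood higher, at 10577 CPM, and at 6563, 8406 and 11802 CPM in B2 to B4. Not all genes of the list fell: 3 of its 19 tested genes were highest in B1, against 36% of all tested genes. Among these 3, SOX2 stood at 1453 CPM in B1 and 108, 129 and 165 CPM in B2 to B4. SLC1A2 (ENSDARG00000102453), SLC1A3 (ENSDARG00000043148) and VIM (ENSDARG00000010008) were highest in B4. In B1 they too were above the mean of the other libraries, by 0.29, 0.54 and 0.03 log2 units. MFSD2A-y was nearest to the median profiles of the erythrocyte list (4 tested genes) and the radial glia list, at 0.20 and 0.21 log2 units, and the part of those cells was not tested. The mural list was highest in B2, as cdh5 was, for 9 of its 16 tested genes, against 24.8% of all tested genes. It was highest in B1 for 6, PDGFRB among them, against 36%. cdh5 was nearer to the median profile of the mural list, at 0.35, than to that of any other list examined.

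For each member, up to 3 tested genes with a symbol and the nearest profiles over 4 libraries were named. For CLDN5 they were NEUROD1, DENND4B and si:dkeyp-121d2.7, at 0.098, 0.10 and 0.12 log2 units. For kdrl they were IGFBP5, an insulin-like growth factor binding protein gene, gmip and DUSP6, a phosphatase gene of the MAP kinase pathway, at 0.11, 0.13 and 0.15. For cdh5 they were PAQR9, si:dkey-19b23.8 and si:dkey-71l1.1, at 0.062, 0.071 and 0.075. For MFSD2A-x they were RTCB, NUP50 and C10H17orf49, at 0.036, 0.045 and 0.048, and for MFSD2A-y TRAPPC13 and nol7, at 0.013 and 0.016. Profiles over 4 libraries are short, and how many genes lie near depends on the shape. Within 0.25 log2 units lay 2493 tested genes of MFSD2A-y, 1013 of MFSD2A-x, 133 of cdh5, 32 of kdrl and 24 of CLDN5. No member was among the 3 nearest genes of another. With so few genes named from 17283 tested, this cannot say whether a barrier gene followed an identity gene.

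The authors' YuGene scores, which place each gene between 0 and 1 within its library, gave CLDN5 0.921 in B1 and 0.374, 0.308 and 0.466 in B2 to B4. They gave kdrl 0.678, 0.465, 0.368 and 0.213 in B1 to B4, and cdh5 0.0848, 0.198, 0.123 and 0.0729. The order of the libraries was that of the CPM for CLDN5, kdrl, cdh5 and MFSD2A-x. For MFSD2A-y, at 0.575, 0.804, 0.805 and 0.787, B3 stood marginally above B2, and B1 was lowest on both scales.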

How the data were processed

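Raw read counts for each Ensembl ID and YuGene scores, set within a library, were deposited by the authors with 1 column per library, per the file headers. The submitters' processing notes name bcl2fastq, R 3.2.2 and build GRCz10; aligner, counter, strand setting and annotation: not given in the sources used here. Columns match no sample number, and 0 columns were left out. The labels do not say that pools came from separate preparations, so p-values measure spread between pools that may be partly technical. The floor and the stated counting errors cover counting only and treat reads as independent molecules, which amplified reads are not. The values after ± are SDs over the libraries or SEs of the edgeR fit, and both include spread between libraries.

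Counts were scaled with TMM factors over all IDs in edgeR 4.0.16 (R 4.3.3), and 17283 genes with at least 1 CPM in 2 libraries were fitted with a single mean. The quasi-likelihood F test against the median fitted level was formed as in edgeR's own test and adjusted by Benjamini-Hochberg at 0.05. On simulated counts for those 17283 genes the test called 48 and 38 of 50 genes set at 4 and 2 times that level, 30 and 50 of 50 at 0.5 and 0.25 times, and 6 of 200 set at it. Log2 CPM used a prior count of 2. Symbols covered 26269 IDs; 208 of 221 list entries matched, some through the human-style symbol, which stands for both zebrafish copies. Transcript lengths were not used here, so no level was set per kilobase. Members, lists and tests were chosen with earlier results of these data known. Named genes are the members, the 5 highest and every ID called above the reference in the endothelial and barrier lists, up to the 3 highest per other list, and up to 3 nearest profiles per member; other list genes named were chosen after their values were seen. Some genes that meet this rule are not reported here. DESeq2 1.42.0, limma 3.58.1, other scalings, filters, prior counts, the YuGene scores and leaving out each library were alternatives.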

Additional observations from a re-analysis of the deposited data

Results flagged for a closer look

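Over 20 sets of 4 values (5 genes on the CPM and the log2 CPM scale, and 10 pairs), 3 held a library whose gap to its nearest neighbour took an unusually large share of the whole range (Dixon's criterion for 4 values at 95%). Chance gives about 1 in 20 such sets, and these sets share libraries and genes. The level of CLDN5 in B1 stood apart with a share of 0.959 on the CPM scale, and did not on the log2 scale (0.801). The ratio of kdrl to cdh5 in B1 stood apart with a share of 0.933. The level of MFSD2A-y in B1 stood apart with a share of 0.832 on the log2 scale, close to the limit, and did not on the CPM scale (0.760).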

How the results depend on the processing

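No paired analysis was possible because the study has 1 group. The alternative per kilobase was not run, since no transcript lengths were used. Of 312 recomputed values 271 stayed within the bounds set, which were the sign and call of a member's level, the sign of a within-library difference, a factor of 1.5 for counts and coefficients, and 10 percentage points for likeness. Sizes moved within these bounds: without B1 the level of kdrl was 0.14 and the log2 difference of CLDN5 and kdrl 0.23, the members above the median were 2, and with no filter CLDN5 stood at 4.51. With every ID of at least 1 count fitted, the median tested gene is a barely detected one by construction. The level of cdh5 then turned to 0.21 without passing and kdrl passed at 2.87. In that fit 0 members lay below the median (by edgeR, and 0 at an unadjusted p under 0.05), 11 identity genes lay above and 3 below, 2 junction genes lay below, and 17 Wnt genes lay above and 2 below. With 1 CPM in all 4 libraries 3 junction and 4 Wnt genes lay below. By limma-voom CLDN5 stood at 1.38 without passing. With each library left out in turn the level of CLDN5 ran from 0.29 to 2.77, junction genes below from 3 to 6 and Wnt genes below from 4 to 7. The coefficients of variation ran from 0.377 to 0.685 for kdrl, 0.294 to 0.984 for CLDN5, 0.256 to 0.503 for MFSD2A-x and 0.219 to 0.537 for MFSD2A-y, each lowest without B1, and the count of variable members was 0 in each case. The coefficient of all tested genes without B1 is not given here, so these falls are not read as particular to the members. Calls of level over all tested genes moved too, to 13354 of 16693 without B1. Without B2, B3 and B4 in turn they were 10145 of 16844, 9934 of 16748 and 9713 of 16748.

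Likeness moved most, as the share of tested genes nearer to the identity gene. With YuGene scores it was 36.6% for kdrl and CLDN5, 39.2% for kdrl and MFSD2A-x, 91.8% for kdrl and MFSD2A-y, 18.6% for cdh5 and MFSD2A-x, 64.3% for cdh5 and MFSD2A-y, and 94.3% for cdh5 and kdrl. With each library left out it ran from 37.8 to 80.8% (kdrl and CLDN5), 78.7 to 99.2% (cdh5 and CLDN5), 25.1 to 41.1% (kdrl and MFSD2A-x), 29.2 to 57.9% (cdh5 and MFSD2A-x), 24.6 to 80.9% (kdrl and MFSD2A-y), 9.45 to 34.0% (cdh5 and MFSD2A-y) and 0.179 to 91.1% (cdh5 and kdrl). Other than by construction or fewer libraries, the cause was not tested. Depth limits cdh5 most, at 73 counts in B1.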

Other observations

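Wnt ligands of the Wnt7 group, received in brain endothelium through ADGRA2 and RECK, are known to induce the barrier in mice and zebrafish. Of 22 IDs of this pathway 20 were tested, 10 lay above the median tested gene and 7 below. Among all tested genes 36.8% lay above it and 33.2% below. The ligand gene WNT7A (ENSDARG00000044827) stood at 621 ± 149 CPM and WNT7B at 37.5 ± 17.2 CPM, both above it. The other WNT7A ID, ENSDARG00000002483, and wnt7ba lay below it, at 1.51 ± 1.29 and 6.08 ± 2.95 CPM. Without B2 and without B3 wnt7ba did not pass (edgeR adjusted p = 0.0814 and 0.0844). The receptor cofactor gene RECK, at 23.9 ± 1.99 CPM, lay above it and was nearly level, with 23.2, 26.9, 23.0 and 22.6 CPM in B1 to B4. ADGRA2 at 14.3 ± 2.91 CPM and FZD4, a frizzled receptor gene, at 11.04 ± 3.99 CPM did not pass, and the gene ndp of norrin, a ligand of FZD4, lay below it at 1.91 ± 0.698 CPM.

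The beta-catenin genes CTNNB1 and ctnnb2 stood at 778 ± 288 and 93.9 ± 132 CPM and the pathway target gene AXIN2 at 84.8 ± 17.8 CPM, all above it. TCF7L1 at 71.3 ± 49.2 CPM, tcf7l1b at 31.6 ± 38.6 CPM, both transcription factor genes of the pathway, and APCDD1L at 50.6 ± 12.8 CPM also lay above it. ctnnb2 was 291 CPM in B1 and 32.6, 19.0 and 32.9 CPM in B2 to B4, and tcf7l1b was 89.2 CPM in B1 and 7.83, 11.96 and 17.4 CPM in B2 to B4. Without B1 ctnnb2 averaged 28.2 CPM and TCF7L1 46.7 CPM and both still passed, while tcf7l1b averaged 12.4 CPM and did not pass, and nor did it without B4 (edgeR adjusted p = 0.0743). In B1 7 of the 20 genes were highest, against 36% of all tested genes.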
